A study of Homo sapiens with 14 samples.

Results

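The libraries made with an antibody to RBFOX2 were compared with libraries in which the editing enzyme was added without that antibody (Enzyme-only), at 2 amounts of RNA, to show what the antibody adds to editing by free enzyme. The members were taken by title and make up 8 of the 14 libraries of the series: 6 RBFOX2 libraries, 3 at 1 ng and 3 at 100 pg of input RNA, and 2 Enzyme-only libraries, 1 per input. The cells of every group were methanol-fixed HEK293T cells, an immortalized human kidney line that the labels also write as HEK293XT. RBFOX2 cells received a rabbit anti-RBFOX2 antibody and then APO1-Nb, a purified fusion of the cytidine deaminase APOBEC1 with a nanobody that binds the antibody, and Enzyme-only cells received APO1-Nb alone. The remaining 6 libraries, 3 per input, are Buffer-only cells that received neither and are used only as a background level. All libraries come from a single cell line, and the study's methods describe replicates as wells on separate slides. P-values therefore cover no spread beyond that between such wells. The labels do not say whether the 2 inputs share wells or RNA, so agreement between inputs may not be independent. With 1 Enzyme-only library per input, that library is assumed to vary as the RBFOX2 libraries do.

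RBFOX2 is a nuclear and cytoplasmic RNA-binding protein that recognises UGCAUG and is best known for switching alternative exons on or off from motifs in the neighbouring introns, and it also binds 3′UTRs. APOBEC1 turns cytosine into uracil in single-stranded RNA and prefers a cytosine preceded by A or U. Tethered through the antibody, the enzyme can leave C-to-U edits on the cytosines around a bound motif, while enzyme that is not tethered can edit any accessible cytosine.

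Stretches of 30 nt in 6 genes show what an edit beside the motif looks like. They are printed as DNA of the transcribed strand (hg38), 5′ to 3′, with the motif TGCATG in capitals, along with the cytosines called as edited in an RBFOX2 library (in the last 2 stretches only the most recurrent one). The first 4 belong to genes with the largest difference in sites near the motif between the groups, and the last 2 hold a position called in 5 or 6 of the 6 RBFOX2 libraries, chosen after their values were seen. None of the capital cytosines outside the motif was called in an Enzyme-only or Buffer-only library.
ENAH: ttCtcagttaCcTGCATGaataaataatga
CALM2: CaagtaaCatgtTGCATGtggcttaCtCtg
APP: gtatCaaaCtagTGCATGaatagattCtCt
MPRIP: gtgttttgttttTGCATGcttCaCtttttC
PLS3: atggtcatgaCtgtgttTGCATGtttgatg
SERF1B: gaataaaacaCtaaccaTGCATGtgacata

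The ENAH stretch (chr1:225496726-225496755, minus strand) lies in the 3′UTR of an actin regulator of the Ena/VASP family, and held 5 calls in 4 RBFOX2 libraries. The CALM2 stretch (chr2:47160550-47160579, minus strand) lies in the 3′UTR of a calmodulin gene and held 7 calls at 4 positions in 4 RBFOX2 libraries. The APP stretch (chr21:25881378-25881407, minus strand) lies in the 3′UTR of the amyloid precursor protein gene and also held 7 calls at 4 positions in 4 RBFOX2 libraries. The MPRIP stretch (chr17:17163400-17163429, plus strand) is intronic, in the gene of a myosin phosphatase-interacting protein, and held 5 calls in 4 RBFOX2 libraries. The PLS3 and SERF1B stretches are described with the recurrent positions.

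Files held site calls by SAILOR, which lists each cytosine with edited reads, and clusters of sites called by FLARE. The 8 libraries had 24829 to 42589 sites each, with a median coverage of 19 to 23 reads per site, and 52.5 to 59.1% of the sites in each rested on 1 edited read. Sites whose cytosine lies on the coding strand of a gene (gene-strand sites) carry the results below, and sites on the strand opposite to a gene serve as a comparison within each library. Among 10 marker genes of HEK293 cells 7 had at least 1 gene-strand site, against 3 of 16 marker genes of other cell types, none of which reached the number of sites needed for a test. An edit is seen only where a transcript is covered, so site numbers follow RNA abundance as well as editing, and expression was not measured apart from it.

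RBFOX2 libraries held more gene-strand sites than the Enzyme-only library at each input, and the excess was proportionally largest beside the RBFOX2 motif. At 1 ng the RBFOX2 libraries had 30256, 31594 and 31948 gene-strand sites, and the Enzyme-only library had 27211. At 100 pg the RBFOX2 libraries had 16824, 17088 and 17092, and the Enzyme-only library had 14968. Every RBFOX2 library was above the Enzyme-only library of its input, by 3045 to 4737 sites at 1 ng and 1856 to 2124 sites at 100 pg. Buffer-only libraries had 9728 to 12274 gene-strand sites over both inputs, and Enzyme-only already stood above all of them at both inputs.

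Sites with a UGCAUG centred within 50 nt on the same strand are called near-motif sites here. At 1 ng the RBFOX2 libraries held 1862, 1858 and 1985 of them and the Enzyme-only library 778, a ratio of 2.39 to 2.55. At 100 pg the RBFOX2 libraries held 766, 767 and 781 and the Enzyme-only library 416, a ratio of 1.84 to 1.88. For all other gene-strand sites the ratio was 1.07 to 1.13 at 1 ng and 1.104 to 1.12 at 100 pg. RBFOX2 libraries were thus higher in both classes, with a larger ratio near the motif, yet the sites away from the motif were the more numerous addition. In the first 1 ng RBFOX2 library 1084 of the 3045 additional sites were near-motif sites and 1961 were not, and in the first 100 pg RBFOX2 library the numbers were 350 and 1506 of 1856. An exact permutation test that moved the Enzyme-only label among the libraries of its input (two-sided, 16 arrangements) gave p = 0.0625 for both classes and for the gene-strand total, the smallest p that the design allows (0.0972 after Benjamini-Hochberg adjustment over 14 library totals). No difference between single library values can therefore pass 0.05 here, and the values below are read against the spread of the RBFOX2 libraries.

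The share of gene-strand sites that were near-motif sites separated the groups at both inputs without overlap. At 1 ng it was 6.15, 5.88 and 6.21% in the RBFOX2 libraries and 2.86% in the Enzyme-only library (95% Wilson interval 2.67 to 3.06%). At 100 pg it was 4.55, 4.49 and 4.57% in the RBFOX2 libraries and 2.78% in the Enzyme-only library (2.53 to 3.05%). The Enzyme-only libraries sat close to the Buffer-only libraries, which lay between 2.30 and 2.74% over both inputs. The RBFOX2 mean was 6.08 ± 0.18% at 1 ng and 4.54 ± 0.04% at 100 pg (SD, n = 3 libraries each), and the difference from Enzyme-only averaged over the inputs was 2.49 percentage points (exact permutation p = 0.0625). Intervals cover counting error only, because PCR copies without molecular identifiers are not independent molecules.

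**Figure D1:**
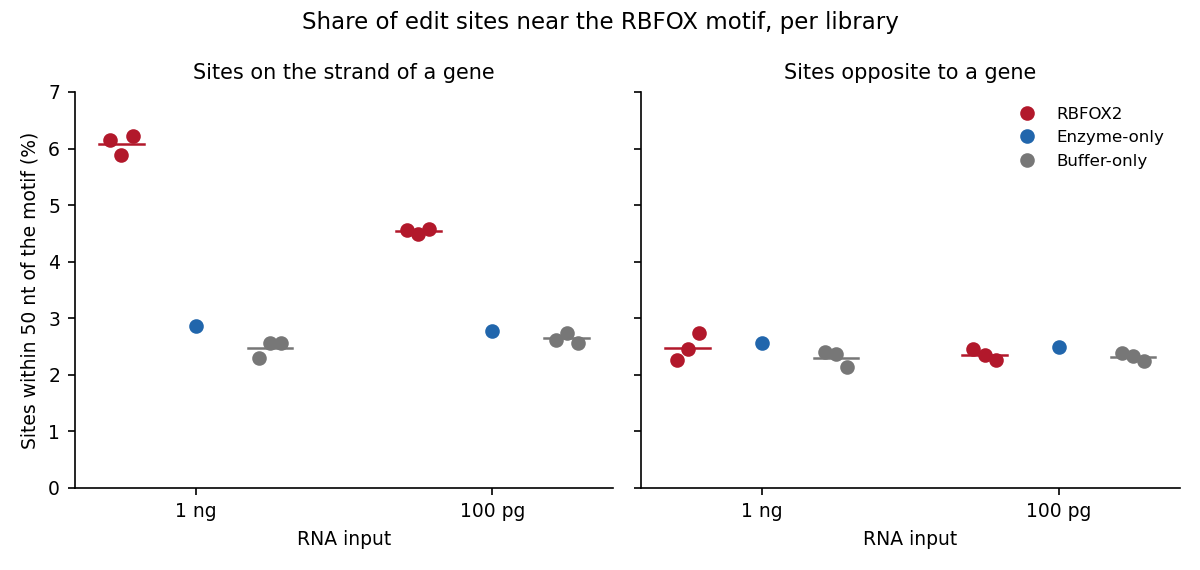
Percent of sites with UGCAUG centred within 50 nt (vertical axis) in each RBFOX2, Enzyme-only and Buffer-only library at 1 ng and 100 pg, for gene-strand sites (left panel) and for sites on the strand opposite to a gene (right panel). On the gene strand the RBFOX2 libraries lie at 5.88 to 6.21% at 1 ng and 4.49 to 4.57% at 100 pg, above Enzyme-only at 2.86 and 2.78%, while on the opposite strand the groups overlap.

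The strand opposite to genes gave a comparison inside the same libraries. The number of opposite-strand sites was 8861 ± 330 in RBFOX2 libraries and 9188 in the Enzyme-only library at 1 ng, and 8793 ± 275 and 8687 at 100 pg (exact permutation p = 0.8125). Their near-motif share was 2.48 ± 0.24% in RBFOX2 libraries and 2.57% in Enzyme-only at 1 ng, and 2.36 ± 0.10% in RBFOX2 libraries and 2.49% in Enzyme-only at 100 pg (exact permutation p = 0.5). On this strand Enzyme-only lay outside the range of the RBFOX2 libraries in number at 1 ng only, and in motif share at 100 pg only. It was the higher group in each case. Buffer-only libraries, without enzyme, had 8834 ± 450 opposite-strand sites at 1 ng and 8631 ± 623 at 100 pg. Opposite-strand sites were thus about as many without enzyme, so they give a background level and could show little of what the antibody adds. Sites outside annotated genes were fewer, 1174 to 1608 per library, with a near-motif share of 4.33 ± 0.60% in RBFOX2 and 2.99% in Enzyme-only at 1 ng, and 3.46 ± 0.55% in RBFOX2 and 2.73% in Enzyme-only at 100 pg (exact permutation p = 0.125).

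The excess near the motif fell off with distance but reached beyond 50 nt. Gene-strand sites whose nearest UGCAUG was 10 to 25 nt away were 2.30 ± 0.10% in RBFOX2 and 0.897% in Enzyme-only libraries at 1 ng, and 1.55 ± 0.10% in RBFOX2 and 0.848% in Enzyme-only libraries at 100 pg. Between 50 and 100 nt the shares were 4.05 ± 0.08% in RBFOX2 and 2.84% in Enzyme-only at 1 ng, and 3.46 ± 0.20% in RBFOX2 and 2.49% in Enzyme-only at 100 pg. Between 200 and 500 nt they were 14.1 ± 0.18% in RBFOX2 and 13.2% in Enzyme-only at 1 ng, and 13.7 ± 0.23% in RBFOX2 and 13.3% in Enzyme-only at 100 pg. In relative terms the gap was thus widest within 25 nt and narrow past 200 nt. All 6 distance bins, and both sides of the motif, had the RBFOX2 mean above Enzyme-only at both inputs (exact permutation p = 0.0625, and 0.0625 after adjustment over 9 measures).

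The edits were not spread evenly on the 2 sides of the motif. Sites 3′ of their nearest motif within 50 nt made up 3.33 ± 0.13% of gene-strand sites in RBFOX2 and 1.39% in Enzyme-only libraries at 1 ng, and 2.37 ± 0.11% in RBFOX2 and 1.18% in Enzyme-only libraries at 100 pg. Sites 5′ of the motif made up 2.75 ± 0.05% in RBFOX2 and 1.47% in Enzyme-only libraries at 1 ng, and 2.16 ± 0.14% in RBFOX2 and 1.60% in Enzyme-only libraries at 100 pg. The 3′ side thus had the larger gap at both inputs. The 10-nt bin that begins 10 nt 3′ of the motif centre held 107, 104 and 121 sites per 10000 in the 1 ng RBFOX2 libraries, against 33.4 in Enzyme-only, and 67.8, 62.6 and 73.1 in the 100 pg RBFOX2 libraries, against 30.1 in Enzyme-only.

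**Figure D2:**
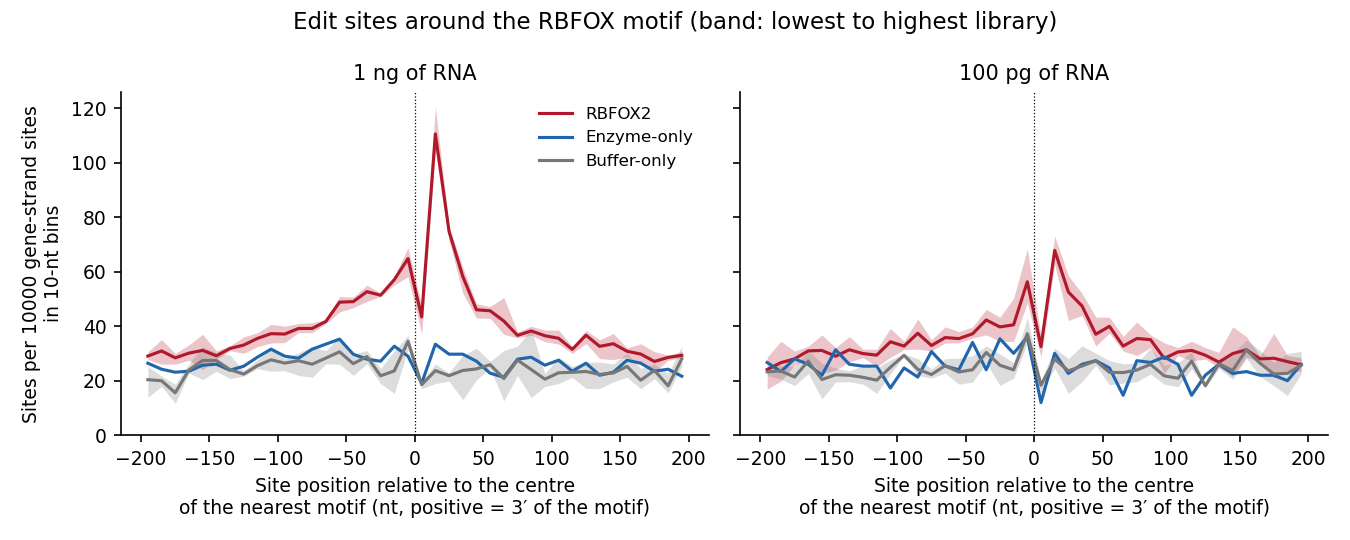
Gene-strand sites per 10000 (vertical axis) in 10-nt bins of the position of the site relative to the centre of the nearest UGCAUG (horizontal axis, nt, negative is 5′), with 1 panel per input and a band from the lowest to the highest library where a group has 3. The RBFOX2 line rises on both sides of the motif with its maximum 10 to 20 nt 3′ of the centre, 104 to 121 at 1 ng and 62.6 to 73.1 at 100 pg, while Enzyme-only lies at 33.4 and 30.1 there.

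Within the motif itself the groups overlapped. The cytosine inside UGCAUG was called at 24, 22 and 24 places in the 1 ng RBFOX2 libraries and at 23 in Enzyme-only, and at 26, 18 and 15 places in the 100 pg RBFOX2 libraries and at 20 in Enzyme-only, with 11 to 24 in Buffer-only libraries. The base just 5′ of the motif behaved otherwise. It was called at 51, 53 and 61 places in the 1 ng RBFOX2 libraries, against 9 in Enzyme-only and 1 to 5 in Buffer-only, and at 24, 23 and 26 places in the 100 pg RBFOX2 libraries, against 11 in Enzyme-only and 3 to 7 in Buffer-only. From 4 to 10 nt after the motif the counts were 237, 262 and 232 in RBFOX2 and 67 in Enzyme-only libraries at 1 ng, and 79, 88 and 77 in RBFOX2 and 31 in Enzyme-only libraries at 100 pg. In the first 3 nt after the motif they were only 21, 19 and 22 in RBFOX2 and 19 in Enzyme-only at 1 ng, and 11, 15 and 15 in RBFOX2 and 5 in Enzyme-only at 100 pg. The added edits thus flanked the motif. Per 10000 gene-strand sites the motif cytosine held 7.47 in RBFOX2 and 8.45 in Enzyme-only libraries at 1 ng, and 11.6 in RBFOX2 and 13.4 in Enzyme-only libraries at 100 pg. These zones were drawn after the profile was seen and are given without a test.

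**Figure D3:**
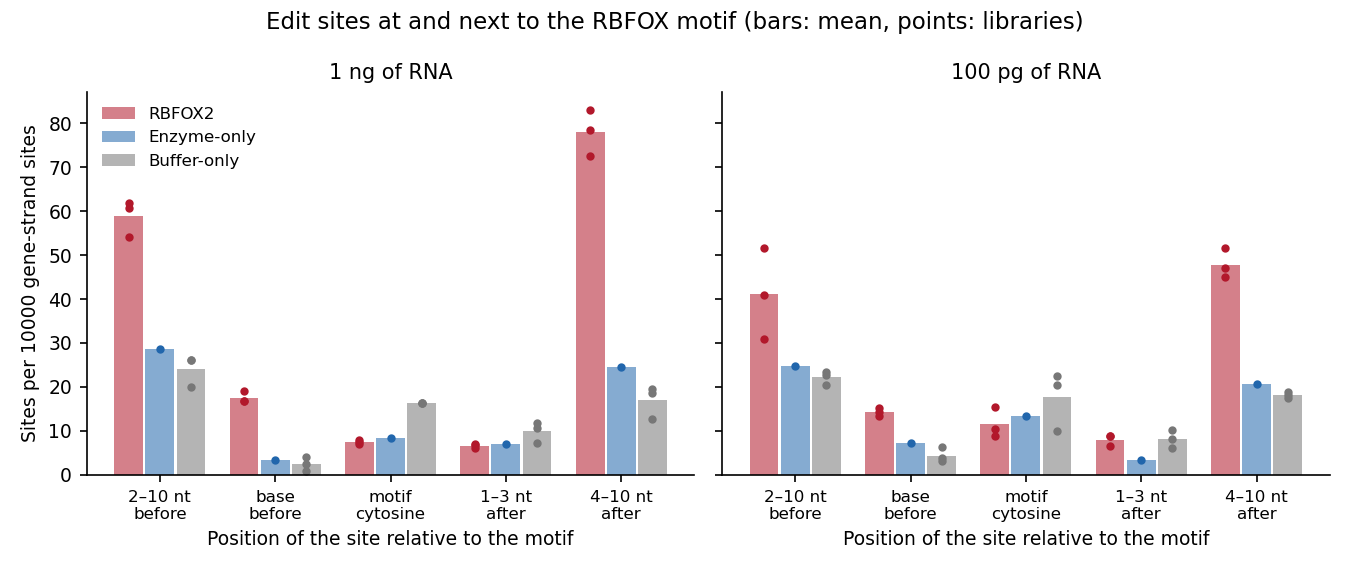
Gene-strand sites per 10000 (vertical axis) in 5 zones around UGCAUG for RBFOX2, Enzyme-only and Buffer-only libraries, with bars for means, points for libraries and 1 panel per input. At 1 ng the base before the motif holds 17.6 in RBFOX2 and 3.31 in Enzyme-only and the zone 4 to 10 nt after holds 78.0 in RBFOX2 and 24.6 in Enzyme-only, whereas the motif cytosine holds 7.47 in RBFOX2 and 8.45 in Enzyme-only.

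All possible hexamers were tested together, to ask which sequence the sites of RBFOX2 libraries lay next to without choosing it. The measure was the log2 of the share of gene-strand sites with the hexamer centred within 50 nt, compared by limma over the 8 libraries, with Benjamini-Hochberg adjustment over all hexamers. UGCAUG ranked first by p-value and by fold change at both inputs. By fold change at 100 pg its rank was 6 with a 25 nt window, 2 with all sites and 11 among 3′UTR sites alone, where it was 2 by p-value at 100 pg and 2 by fold change at 1 ng. Its log2 fold change of RBFOX2 over Enzyme-only was 1.09 ± 0.06 at 1 ng and 0.71 ± 0.06 at 100 pg (SE, adjusted p = 9.98e-35 and 1.74e-19 by limma). Over both inputs it was 0.90 ± 0.04 (adjusted p = 3.8e-41 by limma). The background is wide, since 412 hexamers (10.1%) were called higher and 454 (11.1%) lower over both inputs. Hexamers overlap one another and share sites, so these counts are not counts of independent signals. The spread that limma uses is pooled over these hexamers, with 1 Enzyme-only library per input. The very small adjusted p-values rest in large part on that pooled spread and not on the wells alone. That of UGCAUG over both inputs moved by many orders of magnitude when a library was left out.

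Hexamers that overlap the motif followed. GCAUGU had a log2 fold change of 0.66, UUGCAU 0.50, GCAUGC 0.51, AUGCAU 0.41 and GCAUGA 0.37, each called higher over both inputs. Of the 8 hexamers that share a run of 5 bases with UGCAUG, 6 were called higher and 0 lower, with a median of 0.39, beside a median of -0.03 over all hexamers. Of the 18 hexamers that differ from UGCAUG by a single base, 3 were called higher and 1 lower, with a median of 0.01. AGCAUG, the only GCAUG hexamer with another first base that was called, had 0.16 (adjusted p = 0.017 by limma), GGCAUG had -0.01 and CGCAUG had 0.09. The calls among the 18 lie not far from the shares over all hexamers (10.1% higher and 11.1% lower). The study widens the motif to include GCACG and lists shorter secondary motifs. Each of these is held by 8 hexamers, where 1 call lies near the same shares. Of those with GUAUG 3 were called higher, of those with GAAUG 2 and of those with GUUUG 1, each with 0 lower. In the other direction, 3 of those with GCCUG were called lower, 1 of those with GCUUG and 1 of those with GUGUG, each with 0 higher. Among hexamers with GCACG 0 were called in either direction, and their median was -0.09. The medians of the GCACG and secondary groups lay between -0.13 and 0.13, well under that of the hexamers that overlap UGCAUG.

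A second, broader shift was in base composition. Of the 64 hexamers of A and U alone, 56 were called higher and 0 lower, with a median log2 fold change of 0.18, and UUUAUU had 0.29 (adjusted p = 1.67e-14 by limma). Of the 64 hexamers of G and C alone, 25 were called lower and 0 higher, with a median of -0.17. Among 3′UTR sites alone the numbers were 58 of 64 higher with a median of 0.22, and 31 of 64 lower with a median of -0.36, beside 434 (10.6%) higher and 566 (13.8%) lower over all hexamers in 3′UTRs, with a median of -0.06.

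**Figure D4:**
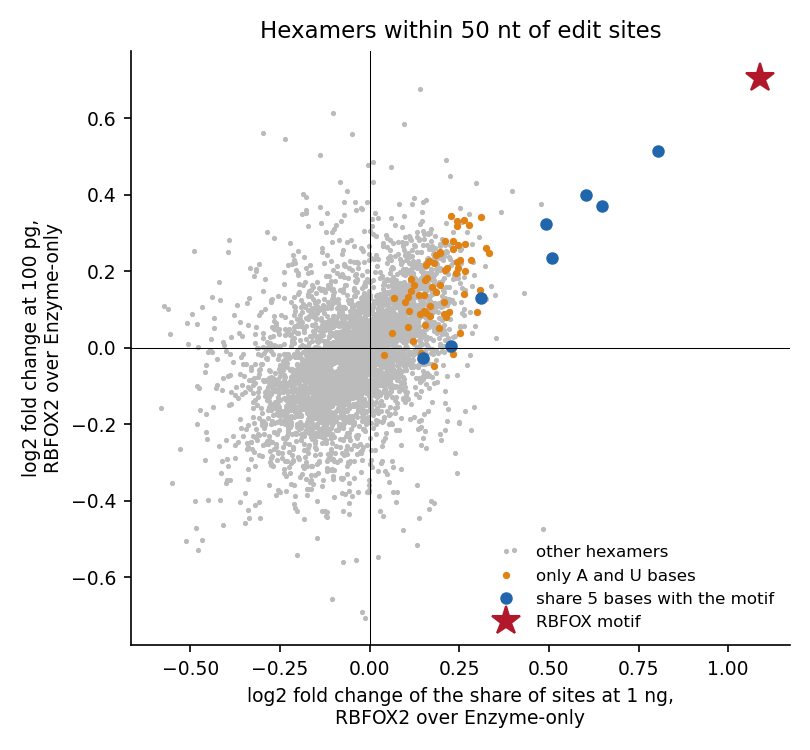
Log2 fold change, RBFOX2 over Enzyme-only, of the share of gene-strand sites with each hexamer within 50 nt, at 1 ng (horizontal axis) and 100 pg (vertical axis), with classes of hexamers coloured. UGCAUG lies at 1.09 and 0.71, apart from all others, the hexamers that share 5 bases with it spread towards it, and the A and U hexamers lie above 0 as a group.

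Sites called in RBFOX2 libraries more often had the base context that APOBEC1 prefers. How far background sites like those of Buffer-only dilute this context in each library was not tested. An A or U preceded 76.7 ± 0.38% of gene-strand sites in RBFOX2 libraries, 72.7% in Enzyme-only and 47.1 to 48.4% in Buffer-only at 1 ng, and 65.3 ± 0.32% in RBFOX2, 60.0% in Enzyme-only and 47.3 to 48.0% in Buffer-only libraries at 100 pg (exact permutation p = 0.0625). The motif excess was concentrated at such cytosines. Among sites after A the near-motif share was 6.93 ± 0.23% in RBFOX2 and 2.91% in Enzyme-only at 1 ng, and 5.83 ± 0.25% in RBFOX2 and 2.55% in Enzyme-only at 100 pg (exact permutation p = 0.0625, 0.125 after adjustment over 4 bases). Among sites after G it was 4.12 ± 0.23% in RBFOX2 and 3.38% in Enzyme-only at 1 ng, and 3.23 ± 0.62% in RBFOX2 and 3.31% in Enzyme-only at 100 pg (exact permutation p = 0.4375).

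By region, sites of RBFOX2 libraries lay more often in 3′UTRs and less often deep in introns than those of free enzyme. The 3′UTR share of gene-strand sites was 51.0 ± 0.44% in RBFOX2 and 42.8% in Enzyme-only libraries at 1 ng, and 43.0 ± 0.72% in RBFOX2 and 37.3% in Enzyme-only libraries at 100 pg. Introns more than 500 nt from an exon held 19.9 ± 0.58% of sites in RBFOX2 and 24.957% in Enzyme-only libraries at 1 ng, and 24.003 ± 0.57% in RBFOX2 and 27.5% in Enzyme-only libraries at 100 pg. The shares in coding sequence, 5′UTRs and introns up to 500 nt from an exon were each lower in RBFOX2 at both inputs, by 0.439 to 1.30 percentage points. Over the 6 regions the exact permutation test gave p = 0.0625 for each except exons of noncoding RNAs (p = 0.1875), and 0.075 and 0.1875 after adjustment.

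The mean near-motif share was higher in RBFOX2 in each region, least so in 5′UTRs at 100 pg. In 3′UTRs 6.58 ± 0.34% of sites were near-motif sites in RBFOX2 and 3.20% in Enzyme-only at 1 ng, and 5.64 ± 0.05% in RBFOX2 and 3.24% in Enzyme-only at 100 pg. In introns up to 500 nt from an exon the shares were 7.57 ± 0.34% in RBFOX2 and 3.19% in Enzyme-only at 1 ng, and 4.10 ± 0.34% in RBFOX2 and 2.85% in Enzyme-only at 100 pg. In deeper introns they were 7.001 ± 0.19% in RBFOX2 and 2.89% in Enzyme-only at 1 ng, and 4.53 ± 0.08% in RBFOX2 and 3.10% in Enzyme-only at 100 pg. In 5′UTRs, with 7 to 20 near-motif sites per library, they were 1.962 ± 0.14% in RBFOX2 and 0.946% in Enzyme-only at 1 ng, and 1.18 ± 0.19% in RBFOX2 and 1.02% in Enzyme-only at 100 pg. In coding sequence they were 3.12 ± 0.11% in RBFOX2 and 2.39% in Enzyme-only at 1 ng, and 2.69 ± 0.29% in RBFOX2 and 1.99% in Enzyme-only at 100 pg. Each of the 6 regions reached the smallest exact permutation p of 0.0625 (0.0833 after adjustment over 8 classes).

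Gene by gene, the number of sites did not separate the groups. A site was found in 8936 ± 58 genes in RBFOX2 and 8706 in Enzyme-only libraries at 1 ng, and in 7326 ± 53 in RBFOX2 and 7173 in Enzyme-only libraries at 100 pg. Of the 2339 genes with at least 24 sites over the 8 libraries, edgeR's quasi-likelihood test called 0 higher (0%) and 0 lower (0%) over both inputs at an adjusted p of 0.05, and DESeq2 also called 0. At an unadjusted p under 0.05 edgeR gave 116 genes higher (4.96%) and 66 lower (2.82%), and DESeq2 52 and 19. The same edgeR test called 0 genes at 1 ng, at 100 pg and for the difference between the inputs, with 65 higher (2.78%) and 40 lower (1.71%) at 1 ng and 71 higher (3.04%) and 85 lower (3.63%) at 100 pg before adjustment. Counted as edited reads instead of sites, edgeR called 5 of 5388 genes higher over both inputs (0.0928%), 2 at 1 ng (0.0371%) and 1 at 100 pg (0.0186%), and 0 lower (0%). The median log2 fold change of all genes was 0.15 with TMM scaling and 0.27 with library totals, and the unadjusted split under library totals was 153 higher and 48 lower. In sites per 10000 gene-strand sites, Enzyme-only was below every RBFOX2 library at both inputs in 180 genes (7.7%) and above every one in 175 (7.48%).

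The genes taken from those that the study shows as RBFOX2 targets in human cells were all tested and none was called. APP had 28, 20 and 15 sites in the 1 ng RBFOX2 libraries and 10 in Enzyme-only, and 14, 10 and 4 in the 100 pg RBFOX2 libraries and 1 in Enzyme-only. Its log2 fold change over both inputs was 1.79 ± 0.66 (SE, adjusted p = 0.582 by edgeR), with 0.76 at 1 ng and 2.82 at 100 pg, and every RBFOX2 library was above the Enzyme-only library of its input. DEPDC1, a cell division gene, had 14, 16 and 19 sites in the 1 ng RBFOX2 libraries and 14 in Enzyme-only, and 4, 3 and 0 in the 100 pg RBFOX2 libraries and 3 in Enzyme-only. OGT, which encodes O-GlcNAc transferase, had 4, 8 and 4 sites in the 1 ng RBFOX2 libraries and 1 in Enzyme-only, and 1, 3 and 4 in the 100 pg RBFOX2 libraries and 2 in Enzyme-only. PKM, the glycolytic pyruvate kinase gene, had a log2 fold change of 0.44 ± 0.60, and DCUN1D4, which encodes a cullin neddylation factor, one of 0.38 ± 1.04, both smaller than their SE.

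Genes that the study shows for another RNA-binding protein, TDP-43, were not called either. NUCKS1, a chromatin protein gene, had 16, 15 and 16 sites in the 1 ng RBFOX2 libraries and 13 in Enzyme-only, and 21, 15 and 10 in the 100 pg RBFOX2 libraries and 7 in Enzyme-only, a log2 fold change of 0.38 ± 0.41. The RNA-binding protein gene TARDBP had -0.17 ± 0.60, and XPO1, the main nuclear export receptor, had 0.06 ± 0.49. No difference between genes was tested.

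Over 18 gene lists edgeR called 0 members, so the lists are described by medians beside the 0.15 of all genes. Of 42 genes known for RBFOX-regulated exons 40 had a site and 20 were tested, with a median log2 fold change of 0.46 and 1 gene higher at an unadjusted p under 0.05 (beside 4.96% of all genes), ATP5F1C, whose mitochondrial ATP synthase transcript carries a well-known RBFOX exon. By input the median of these genes was 0.04 at 1 ng, equal to the 0.04 of all genes, and 0.63 at 100 pg, where all genes had 0.10. The 26 tested genes of membrane traffic had a median of 0.87 and 2 higher before adjustment, APP and SEC22B. The 13 tested core spliceosome genes had 0.55 and 3 higher before adjustment (DDX5, SF3B6 and SNRPD1), the 44 tested SR and hnRNP genes had 0.26 with 1 higher and 1 lower, and the 30 tested chromatin regulators had -0.19 with 1 higher and 2 lower. The near-motif sites of the RBFOX-exon genes numbered 27, 26 and 28 in the 1 ng RBFOX2 libraries and 4 in Enzyme-only, and 6, 10 and 7 in the 100 pg RBFOX2 libraries and 2 in Enzyme-only. ENAH, described below, held 14, 7 and 7 of those in the 1 ng RBFOX2 libraries and 1 of those in Enzyme-only. Their near-motif share at 1 ng was 11.3% in RBFOX2 and 2.26% in Enzyme-only, beside 6.08% and 2.86% over all gene-strand sites. Other lists had similar shares, with 12.2% in RBFOX2 and 2.72% in Enzyme-only for the cytoskeleton genes and 12.2% and 7.87% for the membrane traffic genes.

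Counted over genes, RBFOX2 libraries held several times more transcripts with repeated near-motif sites. At least 3 near-motif sites were found in 142, 158 and 180 genes in the 1 ng RBFOX2 libraries and in 30 in Enzyme-only, and in 35, 44 and 49 genes in the 100 pg RBFOX2 libraries and in 8 in Enzyme-only. At least 5 were found in 43, 27 and 39 genes in the 1 ng RBFOX2 libraries and in 1 in Enzyme-only, and in 10, 9 and 13 genes in the 100 pg RBFOX2 libraries and in 0 in Enzyme-only. Buffer-only libraries had at most 2 genes with at least 3 such sites.

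The 13 genes with the largest difference in near-motif sites, summed over inputs, were picked on that difference, so their values are a description without a test. ENAH (chr1:225486765-225653142, minus strand), with 33 of its 37 RBFOX2 near-motif sites in the 3′UTR, led with 14, 7 and 7 in the 1 ng RBFOX2 libraries and 1 in Enzyme-only, and 1, 3 and 5 in the 100 pg RBFOX2 libraries and 0 in Enzyme-only. CALM2 (chr2:47160084-47176921, minus strand) was stronger at the lower input, with 3, 0 and 1 in the 1 ng RBFOX2 libraries and 0 in Enzyme-only, and 5, 6 and 7 in the 100 pg RBFOX2 libraries and 0 in Enzyme-only. HPRT1 (chrX:134460165-134520513, plus strand), the purine salvage gene, had 3, 3 and 2 in the 1 ng RBFOX2 libraries and 0 in Enzyme-only, and 3, 2 and 5 in the 100 pg RBFOX2 libraries and 0 in Enzyme-only. HPRT1 thus had near-motif sites in each of the 6 RBFOX2 libraries and in neither Enzyme-only library.

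FUBP3 and APP were nearly as even. FUBP3, which encodes a single-stranded nucleic acid-binding protein, had 3, 3 and 1 in the 1 ng RBFOX2 libraries and 5, 4 and 2 in the 100 pg RBFOX2 libraries, with 0 in both Enzyme-only libraries. APP had 5, 3 and 4 in the 1 ng RBFOX2 libraries and 2, 4 and 0 in the 100 pg RBFOX2 libraries, with 0 in both Enzyme-only libraries. The others had most of their near-motif sites at 1 ng, where RBFOX2 libraries also held more such sites in all. ATP2A2, the calcium pump of the endoplasmic reticulum, had 10, 1 and 3 in the 1 ng RBFOX2 libraries and 0, 5 and 2 in the 100 pg RBFOX2 libraries, with 0 in both Enzyme-only libraries. RMND5A, of the CTLH ubiquitin ligase, had 6, 8 and 4 in the 1 ng RBFOX2 libraries and 0, 1 and 0 in the 100 pg RBFOX2 libraries, again with 0 in both Enzyme-only libraries. CARNMT1, a carnosine methyltransferase gene, had 9, 3 and 9 in the 1 ng RBFOX2 libraries and 1 in Enzyme-only, and 0, 0 and 1 in the 100 pg RBFOX2 libraries and 0 in Enzyme-only. YWHAG, a 14-3-3 gene, had 9, 4 and 6 in the 1 ng RBFOX2 libraries and 0 in Enzyme-only, but 1, 0 and 2 in the 100 pg RBFOX2 libraries and 1 in Enzyme-only. The mouse counterpart of YWHAG is among the genes that the study displays for brain tissue. All of these lay mainly in 3′UTRs.

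The rest of the set lay partly or wholly outside 3′UTRs and varied widely between libraries. MPRIP (chr17:17042457-17217679, plus strand) had all 33 of its RBFOX2 near-motif sites in introns, 3, 10 and 7 in the 1 ng RBFOX2 libraries and 3 in Enzyme-only, and 3, 10 and 0 in the 100 pg RBFOX2 libraries and 0 in Enzyme-only. MECOM, a zinc finger transcription factor gene, had 6, 5 and 12 intronic sites in the 1 ng RBFOX2 libraries and 1 in Enzyme-only, and 0, 1 and 0 in the 100 pg RBFOX2 libraries and 0 in Enzyme-only. MMP25-AS1, a long noncoding RNA, had 15, 3 and 7 exonic sites in the 1 ng RBFOX2 libraries and 1 in Enzyme-only, and 7, 0 and 0 in the 100 pg RBFOX2 libraries and 0 in Enzyme-only, and its coverage may include reads of a gene on the other strand, since the kit is not stated to keep strand. SRSF11, a splicing factor gene, divided its 21 RBFOX2 sites between regions, with 10 in introns, and had 5, 5 and 4 in the 1 ng RBFOX2 libraries and 1 in Enzyme-only, and 1, 0 and 6 in the 100 pg RBFOX2 libraries and 0 in Enzyme-only.

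**Figure D5:**
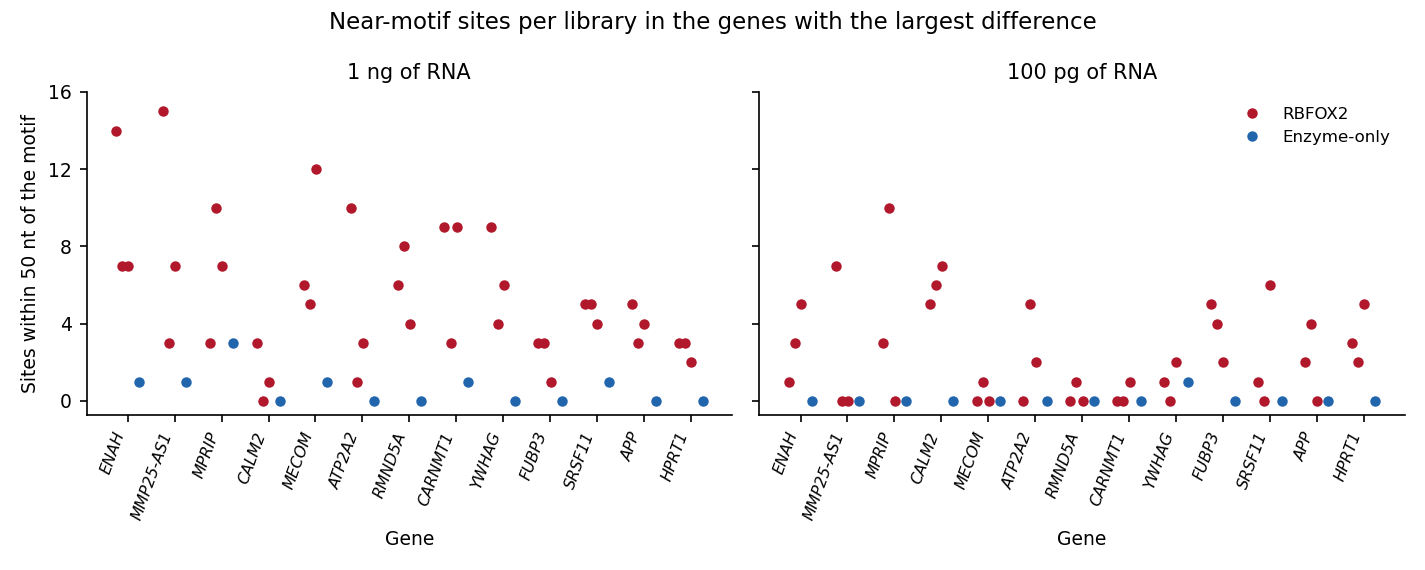
Near-motif sites per library (vertical axis) in the 13 genes with the largest difference, with RBFOX2 libraries as points left of the Enzyme-only library and 1 panel per input. ENAH reaches 7 to 14 in the 1 ng RBFOX2 libraries against 1 in Enzyme-only, and CALM2 5 to 7 in the 100 pg RBFOX2 libraries against 0 in Enzyme-only.

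Single edited positions recurred rarely, and among those without an Enzyme-only call the near-motif share was higher where more RBFOX2 libraries held the position. Of the gene-strand positions of a 1 ng RBFOX2 library 2.39 to 2.67% were also called in the Enzyme-only library, and 1.51 to 1.70% at 100 pg. At 1 ng the near-motif share was 5.55% of the 86828 positions called in 1 RBFOX2 library and not in Enzyme-only, 15.8% of the 2071 called in 2 (95% Wilson interval 14.3 to 17.5%) and 27.04% of the 159 called in all 3 (20.7 to 34.4%). Positions called in all 3 RBFOX2 libraries and also in Enzyme-only showed no such rise, at 3.93% of 229 (2.08 to 7.30%), and 95.6% of them were called in a Buffer-only library too. At 100 pg the shares without an Enzyme-only call were 4.32% of 48813 positions in 1 RBFOX2 library, 12.8% of 610 in 2 and 12.96% of 54 in 3 (6.42 to 24.4%). Buffer-only libraries also held 24.5% of the 159 positions at 1 ng and 61.1% of the 54 at 100 pg that were called in all 3 RBFOX2 libraries and not in Enzyme-only. Most positions of every class lay away from the motif.

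Over all 6 RBFOX2 libraries 6299 near-motif positions absent from Buffer-only were called once, 542 in 2 libraries, 105 in 3, 30 in 4, 2 in 5 and 3 in all 6. Of these, in the same order, 100, 13, 5, 3, 1 and 0 were also called in an Enzyme-only library. The share with such a call was thus not lower among positions called in 2 to 5 libraries than among those called once. The positions called in all 6 included those in PLS3 and HPRT1. The PLS3 position (chrX:115649508-115649537, plus strand, in the 3′UTR of the actin-bundling plastin gene) lies 9.5 nt 5′ of the motif centre and was edited in 2.94, 1.72 and 2.44% of reads in the 1 ng and 3.33, 4.60 and 8.13% in the 100 pg RBFOX2 libraries. The SERF1B position (chr5:70032566-70032595, plus strand) was called in 5 of 6 RBFOX2 libraries, and its gene has a near-identical copy, so its reads may belong to either. Even where it was called in every RBFOX2 library, the PLS3 position was thus edited in a small share of reads.

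Where a position was called in both groups, the edited fractions were compared. The median difference of the edited percent, RBFOX2 minus Enzyme-only, was 0, 0.05 and 0 percentage points in the 1 ng libraries (722, 775 and 854 positions) and -0.03, 0.58 and 0 in the 100 pg libraries (254, 290 and 265 positions). The fraction was higher in RBFOX2 at 48.2 to 50.6% of these positions at 1 ng and 49.4 to 54.8% at 100 pg. Of the shared 1 ng positions 359, 403 and 450 were not called in a Buffer-only library, with median differences of 0, 0.14 and 0.09 points. These values hold only for positions called in both groups.

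Clusters of sites repeated the picture of the sites. RBFOX2 libraries had 23442, 24715 and 24548 clusters and Enzyme-only 22370 at 1 ng, and RBFOX2 libraries 13160, 13614 and 13567 and Enzyme-only 12837 at 100 pg. The share of clusters with UGCAUG within 50 nt was 7.06 ± 0.18% in RBFOX2 and 4.03% in Enzyme-only at 1 ng, and 5.51 ± 0.06% in RBFOX2 and 3.76% in Enzyme-only at 100 pg, with 3.33 to 3.75% in Buffer-only (exact permutation p = 0.0625, 0.0729 after adjustment over 7 measures). An Enzyme-only cluster of the same input overlapped 8.06% of RBFOX2 clusters at 1 ng and 4.51% at 100 pg, against 11.05% and 5.97% overlapped by the clusters of another RBFOX2 library.

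The study's lists of confident clusters keep those found in all 3 RBFOX2 libraries and remove those found in Buffer-only, but were not cleared of Enzyme-only clusters. At 1 ng 228 of the 776 confident clusters overlapped an Enzyme-only cluster (29.4%, 95% Wilson interval 26.3 to 32.7%), and at 100 pg 58 of 214 did (27.1%, 21.6 to 33.4%). The motif lay within 50 nt of 43 of the 228 overlapped clusters (18.9%) and of 134 of the 548 others (24.5%) at 1 ng, and of 8 of the 58 (13.8%) and 25 of the 156 others (16.03%) at 100 pg. Overlapped confident clusters held the motif more often than all clusters of the Enzyme-only libraries, at 4.03 and 3.76%. These sets were not built alike, since the confident clusters recur in all 3 RBFOX2 libraries and were cleared of Buffer-only clusters. Among all clusters of each single RBFOX2 library the direction was the opposite, with the motif more often near overlapped clusters than near others. At 1 ng its shares were 8.26, 7.11 and 8.66% of overlapped clusters and 6.91, 6.89 and 7.14% of others. At 100 pg they were 6.01, 7.496 and 6.39% of overlapped clusters and 5.56, 5.37 and 5.43% of others. Inside the confident clusters of 1 ng the RBFOX2 libraries had 996, 903 and 1526 sites, a high number by construction, while Enzyme-only had 272 and Buffer-only 76 to 94.

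The inputs were then set against each other, though they may share wells or RNA. Across the 2339 genes the log2 fold changes at 1 ng and 100 pg had a Pearson correlation of 0.11 and a Spearman correlation of 0.11, with the same sign in 54.2%. Across all hexamers the values were 0.46 and 0.50, with the same sign in 70.5%, and 81 hexamers were called higher and 25 lower at both inputs, with 0 called in opposite directions (143 or 3.49% higher and 137 or 3.34% lower at 1 ng, and 191 or 4.66% higher and 91 or 2.22% lower at 100 pg). These correlations run across genes and across overlapping hexamers, which share libraries and are not replicates, and are given as descriptions. The correlation was thus higher for sequence context than for single genes, but the 2 differ in precision. Gene values rest on few sites each (APP had 10 in Enzyme-only at 1 ng and 1 at 100 pg). Hexamer shares draw on all gene-strand sites of a library. The gap between the correlations therefore cannot be read as a difference between genes and sequence context. Background also differed between the inputs. Buffer-only libraries held 11850 gene-strand sites on average at 1 ng and 10448 at 100 pg, beside 31266 and 17001 in RBFOX2 libraries. How far such background sites dilute the motif excess at each input was not tested. The motif excess was larger at 1 ng, with UGCAUG's log2 fold change higher there by 0.38 ± 0.08 (adjusted p = 0.0179 by limma), 1 of 2 hexamers called for a difference between inputs (0.0244% in each direction). That call was lost when any of the 1 ng RBFOX2 libraries was left out (limma adjusted p = 0.196 without replicate 1, 0.0945 without replicate 2 and 0.0977 without replicate 3).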

How the data were processed

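The series measured C-to-U edits by RNA sequencing of INSCRIBE libraries (NEBNext Single Cell/Low Input kit, not stated to keep strand). Per the study's methods and the submitters' notes, the authors trimmed reads with cutadapt, aligned them to hg38 with STAR 2.4.0, called sites with SAILOR (score above 0.5, edited fraction below 0.8, known variants removed) and clusters with FLARE (false discovery rate 0.1, merged within 15 nt). Deposited values were therefore, for each site, the SAILOR score, the edited fraction and counts of edited and covered reads. For each cluster the authors deposited a FLARE score with read counts and coverage signal, and for each confident list the coverage signal. No column of another series was present.

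Sites were assigned to Gencode 44 genes on their strand (the authors used another release) with R 4.3.3, edgeR 4.0.16, limma 3.58.1, DESeq2 1.42.0 and Python 3.11.15 (scipy 1.17.1, pysam 0.24.0). The site counts per gene entered edgeR's quasi-likelihood test (TMM, 4 group-by-input means, at least 24 sites over the 8 libraries), the hexamer shares entered limma with 0.5 added to each count, and single values per library an exact permutation test within input. P-values were adjusted by Benjamini-Hochberg at a threshold of 0.05. Scripts were tested on simulated data. Libraries were treated as unpaired across inputs, since the labels do not say whether same-numbered ones share wells or RNA.

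Genes named were 9 of those that the study shows for human cells, any gene called, and those with the 12 largest differences in near-motif sites, ties kept, which made 13. Some of these results are not reported here. Others are marked as chosen after their values were seen. Members and gene lists were chosen with earlier results of these data known. Alternatives covered scaling, filters, windows, coverage, scores, overlap and leaving out libraries.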

Additional observations from a re-analysis of the deposited data

Results flagged for a closer look

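Hexamers whose contrast differed between the inputs numbered 2. For UGCAUG the log2 fold change of RBFOX2 over Enzyme-only was larger at 1 ng than at 100 pg by 0.38 ± 0.08 (SE, limma adjusted p = 0.0179). For AAUGCC it was smaller at 1 ng, by -0.53 ± 0.11 (SE, limma adjusted p = 0.0179). AAUGCC lay near 2.15, 2.21 and 2.24% of gene-strand sites in the 1 ng RBFOX2 libraries and 2.48% in Enzyme-only, and near 2.29, 2.30 and 2.48% in the 100 pg RBFOX2 libraries and 1.84% in Enzyme-only. The Enzyme-only values, from 1 library per input, lay on opposite sides of the RBFOX2 libraries. How far background sites like those of Buffer-only dilute either contrast at each input was not tested.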

How the results depend on the processing

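Of 444 alternative values 404 were classed as unchanged, 6 as weaker, 20 as moved and 14 as reversed. These classes do not all refer to a significance threshold. For single values per library only the direction could change, since the exact permutation p cannot fall below 0.0625. Edited fractions and cluster overlaps had no p-value. Numbers of called genes that stayed at 0 were also classed as unchanged. The share of sites near UGCAUG kept its sign in every alternative run, at 1.76 to 3.22 percentage points when a library was left out, and so did the region shares and UGCAUG's own log2 fold change over both inputs. Leaving out an Enzyme-only library leaves the other input alone. Hexamers called higher over both inputs numbered 412 and those called lower 454. With a 25 nt window they were 245 and 198, with 100 nt 697 were lower, with all sites 237 were lower, and leaving out a library gave 150 to 474 higher and 89 to 565 lower (263 lower without RBFOX2 1 ng replicate 2). Same-numbered RBFOX2 libraries of the 2 inputs showed little correlation (-0.0132, 0.0172 and 0.00378 over 2339 genes), which does not settle whether they share wells. With a replicate block 158 hexamers were higher and 74 lower, and UGCAUG had 0.91, with no other call changed. UGCAUG's difference between inputs was 0.42 with 25 nt, 0.23 with 100 nt and 0.24 in 3′UTRs (limma adjusted p = 0.19, 0.972 and 0.619), and 0.37 to 0.41 with a library left out. Edited reads in place of sites gave 5 genes called higher over both inputs, 2 at 1 ng and 1 at 100 pg. The mean of the 3 library medians of the difference in edited percent at shared 1 ng positions, 0.0173 points, was 0.122 at a coverage of 20 or more and 0.0760 without Buffer-only positions. The Enzyme-only overlap of RBFOX2 clusters, 8.06% at 1 ng and 4.51% at 100 pg, was 6.32 and 5.18% at a FLARE score of 0.99 or more, and 5.71 and 3.28% where 0.5 of the cluster had to be covered.

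Uncalled log2 fold changes of named genes changed sign. TARDBP had 0.15 without scaling, 0.060 without a filter, 0.63 in edited reads and 0.0094 at a coverage of 10 or more, OGT -0.49 in edited reads, and XPO1 -0.017 without Buffer-only positions. With a library left out APP kept its sign at 0.76 to 2.82 and OGT at 0.09 to 1.964, PKM ranged from -0.021 to 0.89, NUCKS1 from -0.044 to 0.81, XPO1 from -0.13 to 0.32, DCUN1D4 from -1.88 to 1.06 and TARDBP from -0.88 to 0.54. The cause of these changes was not tested. Depth limits single sites, since 52.5 to 59.1% of them in the RBFOX2 and Enzyme-only libraries rest on 1 edited read, and 1 Enzyme-only library per input limits every comparison.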

Other observations

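When edited reads in place of sites were counted per gene, edgeR called 5 of 5388 genes higher in RBFOX2 over both inputs (0.0928%) and 0 lower (0%), and the genes were named after their values were seen. CALM2, a calmodulin gene that is also among the near-motif genes, had 84, 22 and 88 edited reads in the 1 ng RBFOX2 libraries and 3 in Enzyme-only, and 133, 226 and 282 in the 100 pg RBFOX2 libraries and 36 in Enzyme-only, a log2 fold change of 3.31 (adjusted p = 0.00055 by edgeR). Buffer-only libraries had 11, 12 and 6 at 1 ng, all above Enzyme-only, and 16, 0 and 69 at 100 pg. PRDX3, a mitochondrial peroxiredoxin gene, had 43, 59 and 79 in the 1 ng RBFOX2 libraries and 0 in Enzyme-only, and 61, 81 and 184 in the 100 pg RBFOX2 libraries and 18 in Enzyme-only, with up to 15 in Buffer-only. ATP6V1G1, a subunit of the vacuolar proton pump, had 29, 21 and 24 in the 1 ng RBFOX2 libraries and 65, 52 and 79 in the 100 pg RBFOX2 libraries, with 0 in both Enzyme-only libraries and up to 8 in Buffer-only. For these genes every RBFOX2 library was above the Enzyme-only library of its input.

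The other called genes were TOMM20, a receptor of mitochondrial protein import, and KIF5B, a kinesin motor gene. TOMM20 had 57, 50 and 49 edited reads in the 1 ng RBFOX2 libraries and 20 in Enzyme-only, and 43, 71 and 61 in the 100 pg RBFOX2 libraries and 0 in Enzyme-only, with up to 7 in Buffer-only. KIF5B had 25, 28 and 45 in the 1 ng RBFOX2 libraries and 17 in Enzyme-only, and 42, 100 and 55 in the 100 pg RBFOX2 libraries and 0 in Enzyme-only, with up to 5 in Buffer-only. Edited reads at 1 position can be copies of 1 molecule, so these values carry fewer independent events than their size.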
